A study of Mus musculus with 8 samples.

Results

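Cyclin-dependent kinase inhibitors, the p53 axis and the D-type cyclins were examined in cardiac fibroblasts carrying reprogramming factors, either transplanted into infarcted mouse hearts or kept in culture. The set holds 10 genes, *Cdkn1a*, *Cdkn1b*, *Cdkn1c*, *Cdkn2a*, *Cdkn2b*, *Cdkn2c*, *Trp53*, *Mdm2*, *Ccnd1* and *Ccnd2*, chosen by name from the 54532 genes of the deposited table, and all 10 were measured in all 8 libraries. MICFs are cardiac fibroblasts taken from the infarcted area of mouse hearts, and all 8 libraries carried the same doxycycline-inducible lentiviruses for MGT (*Mef2c*, *Gata4* and *Tbx5* on a single transcript), *Myocd*, *Sall4* and eGFP, so no library without the factors is part of the comparison. For the *in vivo* samples, infected MICFs were injected into the left ventricle of C57BL/6 mice (male, 8 weeks old at surgery) with a fresh infarct, which received doxycycline in drinking water and daily injections of tacrolimus, methylprednisolone and mycophenolate mofetil. For the *in vitro* samples, infected MICFs stayed in a medium with doxycycline, the TGF-β receptor inhibitor SB431542 and the JAK inhibitor baricitinib. The eGFP+ cells were sorted after 1 week or 2 weeks, with 2 libraries for each of the 4 groups. The effects of the host heart, of the immunosuppressants and of the 2 inhibitors in the medium cannot be told apart.

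Cells enter the division cycle when D-type cyclins activate the kinases CDK4 and CDK6, which phosphorylate the retinoblastoma protein and so release E2F factors. The INK4 inhibitors bind CDK4 and CDK6 alone, whereas the CIP/KIP inhibitors act on most cyclin-dependent kinases. The transcription factor p53 switches on the inhibitor gene *Cdkn1a* and also *Mdm2*, whose product marks p53 for degradation, so that p53 activity is set largely through protein stability. Fibroblasts of the injured heart divide in the days after infarction, and inhibitor genes of both families are known markers of cells that have stopped dividing.

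The sequences upstream of *Cdkn1a* and of the *Cdkn2a* and *Cdkn2b* locus are shown first, because these genes give the highest level of the set and its widest gap between the transplanted and the cultured cells after 2 weeks. They are RefSeq sequences on GRCm38.p6, written in the direction of the gene, and each holds the 250 bases before an annotated start. Of the 10 genes, 7 had an entry there, with 10 starts in all, and *Cdkn1c*, *Ccnd1* and *Ccnd2* had none. *Cdkn1a* has 2 annotated starts 2790 bases apart, and the upstream window lies at chr17:29090729-29090978 on the plus strand, with capitals for every base that belongs to a p53 response element.

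*Cdkn1a*, upstream start: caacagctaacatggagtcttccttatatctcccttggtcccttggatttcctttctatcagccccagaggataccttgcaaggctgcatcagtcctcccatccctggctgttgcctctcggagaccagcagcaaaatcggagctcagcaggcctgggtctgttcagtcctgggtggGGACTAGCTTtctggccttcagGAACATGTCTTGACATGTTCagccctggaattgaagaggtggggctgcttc

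The p53 response element was searched as a pair of its consensus decamers, up to 13 bases apart and with at most 1 mismatch, and it reads the same on both strands. The capitals come from 2 overlapping pairs, of which one is an exact match with 12 bases between the decamers and the other has 1 mismatch and no gap. Of 32851 RefSeq promoters searched over the same 250 bases, 0.898% held such an element, and *Cdkn1a* was the only one of the 7 genes with an entry to hold it. It held the element before its upstream start only. The window before its downstream start (chr17:29093519-29093768) held 0 such elements and 0 exact decamers. At least 1 exact decamer was found before *Cdkn1a* (2), *Trp53* (1) and *Mdm2* (1), and in 7.13% of all promoters. Introns and bases further from the starts were not searched, so a gene without a match here may hold an element elsewhere.

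*Cdkn2a* has 2 annotated starts 12427 bases apart on the minus strand of chromosome 4, and their transcripts encode different proteins, p19Arf from the upstream start and p16Ink4a from the downstream start. *Cdkn2b* starts 16413 bases further upstream on the same strand. Capitals mark the GC box GGGCGG, read on both strands, which 32.7% of all promoters held.

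*Cdkn2a*, upstream start (chr4:89294620-89294869, minus strand): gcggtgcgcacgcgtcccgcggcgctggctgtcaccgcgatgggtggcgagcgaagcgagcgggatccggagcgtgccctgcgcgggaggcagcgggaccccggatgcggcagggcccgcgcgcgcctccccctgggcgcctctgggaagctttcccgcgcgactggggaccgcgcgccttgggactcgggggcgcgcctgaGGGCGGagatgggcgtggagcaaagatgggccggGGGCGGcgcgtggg

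*Cdkn2a*, downstream start (chr4:89282193-89282442, minus strand): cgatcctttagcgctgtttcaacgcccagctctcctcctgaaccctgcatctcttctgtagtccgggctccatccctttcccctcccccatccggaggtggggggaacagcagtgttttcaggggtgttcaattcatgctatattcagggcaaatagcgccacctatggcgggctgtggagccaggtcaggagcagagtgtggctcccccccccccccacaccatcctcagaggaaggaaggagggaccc

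*Cdkn2b* (chr4:89311033-89311282, minus strand): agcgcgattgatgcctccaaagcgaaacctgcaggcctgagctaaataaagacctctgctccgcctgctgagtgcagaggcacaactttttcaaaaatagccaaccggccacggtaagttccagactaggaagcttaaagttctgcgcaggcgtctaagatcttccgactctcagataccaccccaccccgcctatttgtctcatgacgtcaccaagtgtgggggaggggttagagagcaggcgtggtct

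The upstream *Cdkn2a* window held 2 GC boxes and the other windows of the locus held 0, and none of the 3 held a p53 response element. The deposited table gives 1 value per gene, so the transcripts from both *Cdkn2a* starts are summed in every value below.

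The libraries held between 12304242 and 14546904 fragments on genes, and the 10 genes were covered by 51 fragments (*Cdkn1c*, lowest library) to 9456 fragments (*Ccnd2*, highest library). Levels are given as FPKM, fragments scaled to gene length and library size, which the authors also scaled between libraries, and differences as log2 fold changes of FPKM + 0.1 from limma, with Benjamini-Hochberg adjusted p-values over all 15708 genes tested. A gene was called changed when its adjusted p was below 0.01 and its log2 fold change beyond 1 in either direction. The sources do not say which animals or wells the 2 libraries of a group came from, so p-values measure only the spread between these libraries, which may be technical. The sorted cells expressed fibroblast genes in every library, with a summed FPKM of 12 fibroblast markers of 11815 to 15592 *in vivo* and 2699 to 4266 *in vitro*, but markers of other cell types were present too. The summed FPKM of 14 macrophage markers was 2098 to 3339 in the *in vivo* libraries and 5179 to 6354 in the *in vitro* libraries, with *Lyz2* the most abundant of them, and 2 of these markers were called higher and 1 lower *in vivo* after 1 week, against 1 higher and 7 lower after 2 weeks. That of 6 mesothelial markers was 13.1 to 31.1 *in vivo* and 234 to 487 *in vitro*, and that of 9 endothelial markers was 102 to 109 and 22.2 to 60.4. That of 12 cardiomyocyte markers was 92.5 to 141 *in vivo*, and *in vitro* 264 to 295 after 1 week and 1189 to 1391 after 2 weeks. Of the 11 tested, 1 was called higher and 7 lower *in vivo* after 1 week, and 2 higher and 8 lower after 2 weeks. Among all genes tested, 7.79% were called higher and 5.07% lower after 1 week, and 9.02% and 8.05% after 2 weeks. Cardiomyocyte genes such as *Tnni3* and *Myh6* are those by which the paper follows reprogramming. Whether their transcripts came from reprogrammed or admixed cells was not tested. The summed level of 9 lymphocyte markers was 0.504 to 3.40 over all libraries, with *Cd3d* at 0 in both *in vitro* libraries at each week. No marker of these lists except a few lymphocyte genes was at 0 in both libraries of a group. In sorted bulk samples, fewer cells of a type and less RNA per cell cannot be told apart, and the part of these marker differences in the results below was not tested.

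Ordered by level, *Cdkn1a* was the highest of the 10 genes in all 4 groups and *Cdkn1c* or *Cdkn2a* the lowest. In the *in vivo* libraries after 1 week the order ran from *Cdkn1a* with a mean of 73.8 FPKM through *Cdkn1b* (23.2), *Mdm2* (20.8), *Trp53* (17.2), *Cdkn2b* (16.0), *Ccnd2* (15.7), *Ccnd1* (11.3), *Cdkn2c* (10.7) and *Cdkn2a* (6.60) to *Cdkn1c* (3.05). *Cdkn2b* overlapped there with both *Trp53* and *Ccnd2* between libraries, as did *Ccnd1* and *Cdkn2c*. In the *in vitro* libraries after 1 week *Ccnd2* followed *Cdkn1a* with 63.4 FPKM, and then came *Mdm2* (31.1), *Ccnd1* (30.1), *Cdkn2b* (26.9) and *Cdkn2a* (22.7), and the ranges of *Mdm2*, *Ccnd1* and *Cdkn2b* overlapped. Thus *Cdkn2a*, *Ccnd1* and *Ccnd2* stood further down the order *in vivo* than *in vitro*, whereas *Trp53* was at a mean of 15.2 to 18.1 FPKM in every group.

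**Figure D1:**
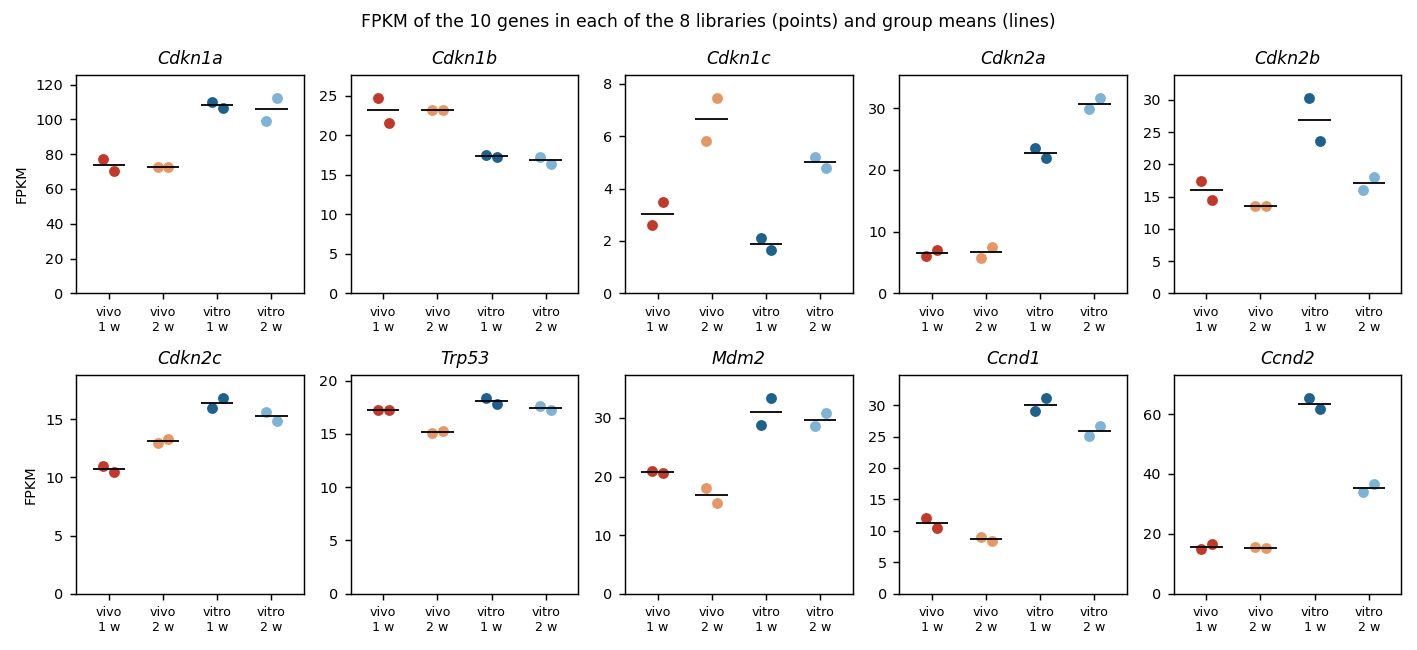
FPKM (y axis, starting at 0, own scale for each gene) of the 10 genes in each of the 8 libraries, shown as points by group on the x axis, with lines for the mean of 2 libraries. *Ccnd1*, *Ccnd2* and *Cdkn2a* sit far lower in all 4 *in vivo* libraries than in all 4 *in vitro* libraries, and *Cdkn1c* is higher after 2 weeks than after 1 week in both settings.

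The first comparison asked how these genes differed between transplanted and cultured cells of the same age. At both weeks 3 of the 10 genes changed, namely *Cdkn2a*, *Ccnd1* and *Ccnd2*, and all 3 were lower *in vivo*, by 2.28 to 4.62-fold. No member was called higher by limma, and 2 after 1 week and 1 after 2 weeks were higher at an unadjusted p under 0.05, a limit that 25.4% and 27.9% of all genes tested passed in that direction. Among all genes tested, 12.9% were called after 1 week (7.79% higher and 5.07% lower) and 17.1% after 2 weeks (9.02% higher and 8.05% lower). By the adjusted p limit of 0.05 alone, 2 members were higher and 7 lower after 1 week, and 1 was higher and 7 lower after 2 weeks, against 42.0% of all genes tested past that limit after 1 week (21.4% higher and 20.6% lower) and 49.8% after 2 weeks (24.6% higher and 25.2% lower). The median log2 fold change of the 10 genes was -0.59 after 1 week and -0.43 after 2 weeks, beside -0.01 and -0.00 over all genes tested. The libraries of the 2 settings did not overlap for any of the 10 genes at either week, 2 being higher and 8 lower *in vivo*, a state shared by 72.9% of all genes tested after 1 week and 74.1% after 2 weeks.

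Among the CIP/KIP inhibitors, *Cdkn1a*, which encodes p21 and is a main effector of p53, was lower *in vivo*, whereas *Cdkn1b*, which encodes p27, was higher. *Cdkn1a* (ENSMUSG00000023067, chr17:29090976-29100727, plus strand, GRCm38) stood at 77.4 and 70.2 FPKM *in vivo* and 110 and 106 FPKM *in vitro* after 1 week. After 2 weeks it stood at 72.6 and 72.7 FPKM *in vivo* and 99.3 and 112 FPKM *in vitro*. The 4 *in vivo* libraries were thus all below the 4 *in vitro* libraries. The log2 fold change of *Cdkn1a* was -0.55 ± 0.08 (SE) after 1 week and -0.54 ± 0.08 after 2 weeks (limma adjusted p = 0.00153 and 0.00136), a difference of 1.47-fold and 1.45-fold that stayed under the fold limit. *Cdkn1b* (ENSMUSG00000003031, chr6:134920401-134925513, plus strand) was at 24.7 and 21.6 FPKM *in vivo* and 17.5 and 17.2 FPKM *in vitro* after 1 week. Its values after 2 weeks were 23.2 and 23.3 FPKM *in vivo* and 17.2 and 16.4 FPKM *in vitro*, again with every *in vivo* library above every *in vitro* library. The log2 fold change of *Cdkn1b* was 0.41 after 1 week and 0.46 after 2 weeks, with 95% confidence intervals of 0.23 to 0.59 and 0.28 to 0.65. The size of this difference rested on the authors' scaling between libraries, without which the log2 fold change of *Cdkn1b* was 0.07 and 0.13 and its adjusted p 0.53 and 0.23. *Cdkn1c*, which encodes p57 and is expressed from the maternal allele only, was among the least abundant inhibitors in every group, with its *in vivo* libraries above its *in vitro* libraries at each week. It was at 2.60 and 3.50 FPKM *in vivo* and 2.10 and 1.67 FPKM *in vitro* after 1 week, a log2 fold change of 0.66 with a 95% interval of 0.20 to 1.11. After 2 weeks the interval for *Cdkn1c* was -0.06 to 0.85, around a log2 fold change of 0.39. Without the scaling these values for *Cdkn1c* fell to 0.33 and 0.07 (limma adjusted p = 0.201 and 0.800).

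Among the INK4 inhibitors, *Cdkn2a* was lower *in vivo* by 3.42-fold after 1 week and 4.62-fold after 2 weeks. *Cdkn2a* (ENSMUSG00000044303, chr4:89274471-89294653, minus strand) was measured at 6.12 and 7.07 FPKM *in vivo* against 23.6 and 21.9 FPKM *in vitro* after 1 week. After 2 weeks it was at 5.74 and 7.49 FPKM *in vivo* against 29.8 and 31.6 FPKM *in vitro*. Each *in vivo* library was therefore below 8 FPKM and each *in vitro* library above 20 FPKM. The log2 fold change of *Cdkn2a* was -1.77 ± 0.13 (SE) after 1 week and -2.21 ± 0.13 after 2 weeks (limma adjusted p = 8.4e-05 and 2.51e-05). *Cdkn2b*, the neighbouring gene that encodes p15 and is known to respond to TGF-β, was at 17.5 and 14.5 FPKM *in vivo* and 30.3 and 23.6 FPKM *in vitro* after 1 week. After 2 weeks *Cdkn2b* was at 13.5 and 13.6 FPKM *in vivo* and 16.1 and 18.0 FPKM *in vitro*. Its log2 fold change was -0.74 after 1 week (adjusted p = 0.00494 by limma) and -0.32 after 2 weeks (adjusted p = 0.0913), neither past both limits. *Cdkn2c*, which encodes p18, was at 11.0 and 10.4 FPKM *in vivo* and 16.0 and 16.8 FPKM *in vitro* after 1 week, and at 12.9 and 13.3 FPKM against 15.6 and 14.9 FPKM after 2 weeks. Its log2 fold change was -0.61 after 1 week and -0.21 after 2 weeks, both past the adjusted p limit of 0.05 but under the fold limit.

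*Trp53*, the gene of p53 itself, had the smallest difference of the 10 genes between the settings at each week on the authors' scale, but not without their scaling, where its log2 fold change was -0.41 after 1 week and -0.53 after 2 weeks and that of *Cdkn1b* 0.07 and 0.13. *Trp53* (ENSMUSG00000059552, chr11:69580359-69591873, plus strand) was at 17.3 and 17.2 FPKM *in vivo* and 18.3 and 17.8 FPKM *in vitro* after 1 week. After 2 weeks it was at 15.1 and 15.3 FPKM *in vivo* and 17.6 and 17.2 FPKM *in vitro*. The log2 fold change of *Trp53* was -0.07 after 1 week, with a 95% interval of -0.20 to 0.06, and -0.20 after 2 weeks, with an interval of -0.33 to -0.07. *Mdm2*, the ubiquitin ligase that is both a target and an inhibitor of p53, was lower *in vivo* by 1.49-fold after 1 week and 1.77-fold after 2 weeks. *Mdm2* (ENSMUSG00000020184, chr10:117688875-117710758, minus strand) was at 21.0 and 20.6 FPKM *in vivo* and 28.8 and 33.4 FPKM *in vitro* after 1 week. Its values after 2 weeks were 18.1 and 15.5 FPKM *in vivo* and 28.6 and 30.8 FPKM *in vitro*, so its *in vivo* libraries stayed below its *in vitro* libraries throughout. The log2 fold change of *Mdm2* was -0.58 ± 0.10 (SE) and -0.82 ± 0.10 (limma adjusted p = 0.00409 and 0.000641), under the fold limit at both weeks. Without the authors' scaling it was -1.15 after 2 weeks and passed both limits.

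The 2 D-type cyclins, which activate CDK4 and CDK6, were lower *in vivo* at both weeks. *Ccnd1* (ENSMUSG00000070348, chr7:144929931-144939925, minus strand) was at 12.0 and 10.5 FPKM *in vivo* and 29.1 and 31.1 FPKM *in vitro* after 1 week. After 2 weeks it was at 9.07 and 8.40 FPKM *in vivo* and 25.0 and 26.6 FPKM *in vitro*. The log2 fold change of *Ccnd1* was -1.41 ± 0.09 (SE) after 1 week and -1.55 ± 0.09 after 2 weeks (limma adjusted p = 3.77e-05 and 1.96e-05), or 2.66-fold and 2.93-fold lower *in vivo*. *Ccnd2* (ENSMUSG00000000184, chr6:127125162-127152193, minus strand) was at 14.9 and 16.5 FPKM *in vivo* against 65.3 and 61.6 FPKM *in vitro* after 1 week, the widest gap of the 10 genes at that week. After 2 weeks *Ccnd2* was at 15.5 and 15.3 FPKM *in vivo* and 34.0 and 36.6 FPKM *in vitro*. Its log2 fold change was -2.01 ± 0.07 (SE) after 1 week and -1.19 ± 0.07 after 2 weeks (limma adjusted p = 3.86e-06 and 2.86e-05), or 4.03-fold and 2.28-fold lower *in vivo*. The remaining D-type cyclin, *Ccnd3*, did not differ in this way, with means of 9.03 and 10.8 FPKM *in vivo* and 9.22 and 9.78 FPKM *in vitro* after 1 week and 2 weeks and log2 fold changes of -0.03 and 0.14.

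**Figure D2:**
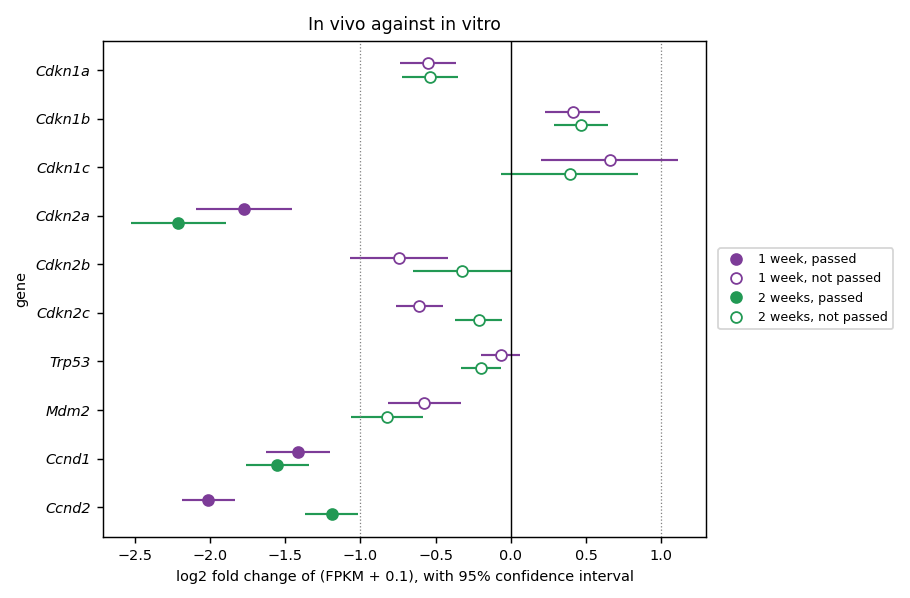
Log2 fold changes of FPKM + 0.1 (x axis) of *in vivo* against *in vitro* samples for each of the 10 genes (y axis), with 95% confidence intervals, after 1 week and after 2 weeks, from 2 libraries per group. Filled points passed the adjusted p limit of 0.01 and the fold limit shown by the dotted lines, and these are *Cdkn2a*, *Ccnd1* and *Ccnd2* at both weeks, whereas *Cdkn1b* lies above 0 and *Trp53* near it.

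The calls of *Cdkn2a*, *Ccnd1* and *Ccnd2* at both weeks held in each alternative processing tried. Undoing the authors' scaling moved the median of all genes tested to -0.34 after 1 week and -0.33 after 2 weeks and turned the 1224 higher and 796 lower calls after 1 week into 906 and 1562, and the 1417 and 1265 calls after 2 weeks into 1029 and 2097. Some reads could belong to other genes where annotations overlap, since strand-specific counting is not stated in the sources: *Ccnd1* shares 1771 bases with *Oraov1* (1.66 to 2.71 FPKM), *Ccnd2* shares 2805 bases with *9330179D12Rik* (0.258 to 0.681 FPKM) and *Cdkn1a* shares 1046 bases with *AC167363.2* (0.492 to 2.86 FPKM), each on the opposite strand. *Trp53* has a processed pseudogene, *Trp53-ps*, at 0.229 to 0.949 FPKM.

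The second comparison asked which of these genes moved between 1 week and 2 weeks in each setting. It uses the same libraries as the first, so its values are not independent of those above. In culture 1 of the 10 genes changed: *Cdkn1c* rose 2.58-fold, from 2.10 and 1.67 FPKM after 1 week to 5.21 and 4.80 FPKM after 2 weeks, a log2 fold change of 1.37 ± 0.19 (SE, limma adjusted p = 0.00406). Among all genes tested, 3.81% were called *in vitro* (2.76% higher and 1.05% lower). The call of *Cdkn1c* was lost when any one of the 4 *in vitro* libraries was left out, with adjusted p-values up to 0.0324 and log2 fold changes of 1.21 to 1.52 in these fits. *Cdkn1c* (ENSMUSG00000037664, chr7:143458339-143461050, minus strand) was also higher after 2 weeks *in vivo*, at 5.82 and 7.46 FPKM against 2.60 and 3.50 FPKM after 1 week. That log2 fold change of 1.10 ± 0.19 (SE, limma adjusted p = 0.0125) missed the adjusted p limit, and 0 of the 10 genes were called *in vivo*, where 2.18% of all genes tested were called (1.23% higher and 0.949% lower). By an unadjusted limma p under 0.05, 2 members were higher and 3 lower after 2 weeks *in vivo*, beside 31.7% of all genes tested (16.3% higher and 15.3% lower). Limma voom on recovered fragments called 1 member, *Cdkn1c*, which was higher, beside 3.21% of all genes tested (1.92% higher). The test of the difference between the 2 time changes of *Cdkn1c* gave -0.26, with a 95% interval of -0.91 to 0.38 and an adjusted p of 0.579 by limma.

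*Ccnd2* showed the largest other difference over time, and it lay in culture. Its *in vitro* level was 65.3 and 61.6 FPKM after 1 week and 34.0 and 36.6 FPKM after 2 weeks, a log2 fold change of -0.84 ± 0.07 (SE, limma adjusted p = 0.000801) that stayed under the fold limit. Its *in vivo* libraries lay between 14.9 and 16.5 FPKM at both weeks, with a log2 fold change of -0.03 and a 95% interval of -0.20 to 0.15. The difference between weeks in the contrast of *in vivo* against *in vitro* samples was 0.82 for *Ccnd2* (adjusted p = 0.00719 by limma), and 0 members passed both limits in that test, as against 1.73% of all genes tested (0.573% higher and 1.15% lower). By the adjusted p limit of 0.05 alone and by an unadjusted limma p under 0.05, the same 2 members passed, *Ccnd2* and *Cdkn2c*, both with a positive difference, beside 9.92% of all genes tested at the former limit (3.85% higher) and 26.9% at the latter (12.1% higher). Limma voom also called 0 members in this test, beside 3.01% of all genes tested (0.910% higher).

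By the adjusted p limit of 0.05 alone, 1 member was higher and 2 were lower after 2 weeks *in vitro*, where 25.1% of all genes tested passed (14.1% higher), and 2 were higher and 1 was lower *in vivo*, where 15.8% passed (8.59% higher and 7.17% lower). *In vitro* these were *Cdkn1c*, *Ccnd2* and *Cdkn2b*, the last with a log2 fold change of -0.65 (adjusted p = 0.0166 by limma). *In vivo* they were *Cdkn1c*, *Cdkn2c* at 0.29 (adjusted p = 0.0298 by limma) and *Ccnd1* at -0.36 (adjusted p = 0.0379 by limma). *Cdkn2a* stood at a log2 fold change of 0.43 over time *in vitro* (95% interval 0.11 to 0.75, adjusted p = 0.0556 by limma) and at -0.00 *in vivo* (95% interval -0.32 to 0.31). *Cdkn1a*, *Cdkn1b*, *Trp53* and *Mdm2* had log2 fold changes between -0.06 and -0.04 *in vitro* and between -0.31 and 0.01 *in vivo*, with no adjusted p under 0.05. The libraries of the 2 weeks did not overlap for 7 members *in vitro* (2 higher, 5 lower) and 6 members *in vivo* (2 higher, 4 lower), against 66.2% and 57.6% of all genes tested.

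**Figure D3:**
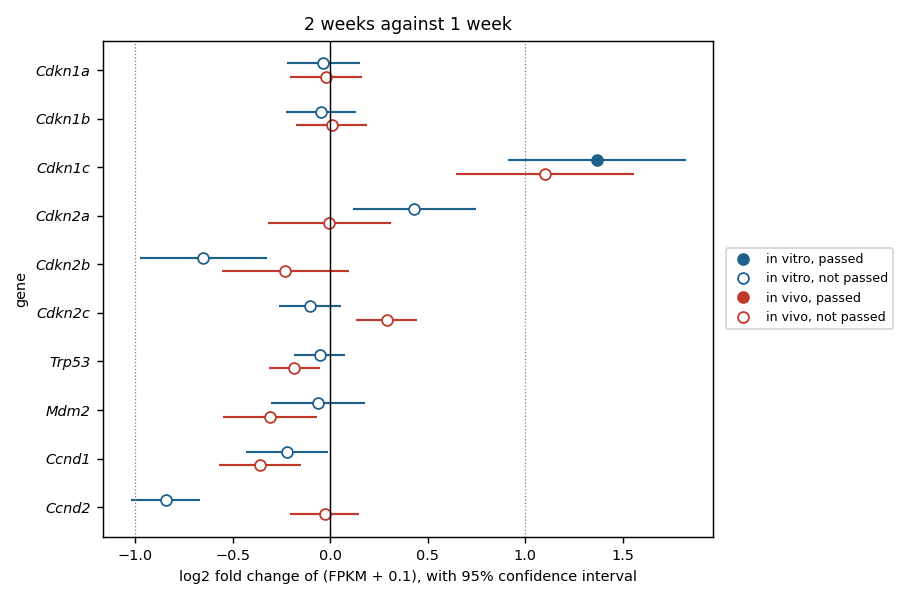
Log2 fold changes of FPKM + 0.1 (x axis) of 2 weeks against 1 week for each of the 10 genes (y axis), *in vitro* and *in vivo*, with 95% confidence intervals from 2 libraries per group. *Cdkn1c* lies above 1 in both settings, filled only *in vitro* where it passed both limits, and *Ccnd2* lies at -0.84 *in vitro* and -0.03 *in vivo*.

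The other genes of these pathways were counted from lists. Among all genes tested, 7.79% were called higher and 5.07% lower *in vivo* after 1 week, and 9.02% and 8.05% after 2 weeks. Over time, 2.76% were called higher and 1.05% lower *in vitro*, and 1.23% and 0.949% *in vivo*. For the difference between weeks these shares were 0.573% and 1.15%. A list of 24 further genes, headed G1 engine, held partner kinases, E cyclins, and retinoblastoma and E2F family members. It also held *Ccnd3*, *Cdkn2d*, *Cdc25a*, *Tfdp1*, *Tfdp2*, *Skp2*, *Cks1b* and *Cdkn3*. Of the 24 genes, 4 were called lower and 0 higher *in vivo* at each week. After 1 week these were *Cdkn3* (log2 fold change -1.51), *E2f8* (-1.46), *Ccne2* (-1.15) and *Tfdp2* (-1.13), and after 2 weeks *E2f8* (-2.32), *Cdkn3* (-1.34), *E2f1* (-1.06) and *Ccne1*, the last only just past the fold limit. *Cdk4*, the partner of both cyclins, had means of 39.5 and 31.2 FPKM *in vivo* and 56.4 and 58.9 FPKM *in vitro*, with log2 fold changes of -0.51 and -0.91. *Cdk6* had log2 fold changes of -0.67 and -0.37, *Rb1*, which encodes the retinoblastoma protein, of -0.28 and -0.00, and *Cdkn2d*, the fourth INK4 gene, of -0.28 and 0.22, none past both limits. The median of the list was -0.51 after 1 week and -0.15 after 2 weeks.

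Genes of cell division that were called were all lower *in vivo*, and those called over time all fell. Of 25 proliferation genes, 10 were called lower *in vivo* after 1 week and 14 after 2 weeks, and 0 higher, with medians of -0.90 and -1.24. By an unadjusted limma p under 0.05, 1 and 2 were higher, beside 25.4% and 27.9% of all genes tested. The proliferation antigen gene *Mki67* was at means of 6.07 and 1.95 FPKM *in vivo* and 15.0 and 5.78 FPKM *in vitro*, with log2 fold changes of -1.29 after 1 week and -1.55 after 2 weeks (limma adjusted p = 0.00332 and 0.00115). *Ccnb1*, a mitotic cyclin, had log2 fold changes of -1.46 and -2.36. Between 1 week and 2 weeks, 8 of the 25 genes fell *in vitro* and 14 *in vivo*, and 0 rose, with *Mki67* at -1.36 and -1.62. At each week the libraries with the lower *Ccnd1*, *Ccnd2* and *Cdkn2a* levels were also those with the lower *Mki67* level. Over time the log2 fold changes of *Ccnd1*, *Ccnd2* and *Cdkn2a* were -0.22, -0.84 and 0.43 *in vitro*. *In vivo* they were -0.36, -0.03 and -0.00. A link of these 3 genes with *Mki67* was not tested.

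More targets of p53 were called lower than higher *in vivo* at both weeks. The list held 35 genes other than *Cdkn1a* and *Mdm2*, of which 34 were tested and *Trp53cor1* was under the FPKM minimum. After 1 week 7 were lower and 1 higher *in vivo*, with a median log2 fold change of -0.48. After 2 weeks 15 were lower and 1 higher, with a median of -0.86. The gene that was higher at both weeks was *Steap3*, a metalloreductase gene, at 1.91 and 2.04. The lowest values after 1 week were those of *Perp* (-2.58), a gene of cell adhesion and death, and *Trp53inp1* (-1.65). After 2 weeks they were those of *Pmaip1* (-2.64), which encodes the death protein Noxa, *Ckap2* (-2.53), *Perp* (-2.16) and *Psrc1* (-2.15), of which *Ckap2* and *Psrc1* act on the mitotic spindle and are also genes of dividing cells. *Ccng1*, a long-known p53 target, was at means of 66.3 and 44.6 FPKM *in vivo* and 127 and 111 FPKM *in vitro*, a log2 fold change of -0.94 after 1 week and of -1.32 after 2 weeks, the latter past both limits.

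Over time 2 p53 targets rose *in vitro*, *Gdf15* by a log2 fold change of 1.86 and *Plk3* by 1.08, and 0 fell. *In vivo* *Perp* rose (1.05) and *Ddit4l* fell (-1.02). In the test of the difference between weeks, 2 targets passed both limits, *Pmaip1* at -1.41 and *Plk3* at -1.09, both with a lower contrast of *in vivo* against *in vitro* samples after 2 weeks than after 1 week.

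The p53 response element described above was also found before 4 of the 26 listed targets with a RefSeq promoter, *Ccng1*, *Bax*, *Polk* and *Rps27l*, named here for this match and not for their values. The 26 genes have 37 promoters in all, and the matches of *Polk* and *Rps27l* lie before the more downstream of their 2 starts. After 2 weeks the log2 fold changes of *Ccng1*, *Bax*, *Polk* and *Rps27l* were -1.32, -0.93, -0.60 and -0.84, beside -0.54 for *Cdkn1a*. The median of all 34 targets tested was -0.86 at that week. The match is a description of letters in a window of 250 bases, and binding of p53 was not measured in these libraries.

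Regulators of p53 showed no call between the settings. Of 19 listed genes, 17 were tested, 0 were called at either week, and *Trp63* and *Trp73*, the paralogs of *Trp53*, were under the FPKM minimum. An unadjusted limma p under 0.05 was reached by 4 regulators higher and 4 lower *in vivo* after 1 week, and by 3 higher and 3 lower after 2 weeks. Among all genes tested, 50.6% and 56.4% reached it in either direction. By the adjusted p limit of 0.05 alone, 3 regulators were higher and 4 lower *in vivo* after 1 week, and 3 higher and 2 lower after 2 weeks. Of all genes tested, 42.0% and 49.8% passed that limit. *Mdm4*, the partner of *Mdm2* in restraining p53, had log2 fold changes of -0.11 and 0.37. *Chek1*, a checkpoint kinase gene, fell over time *in vitro*, by 1.04 on the log2 scale.

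**Figure D4:**
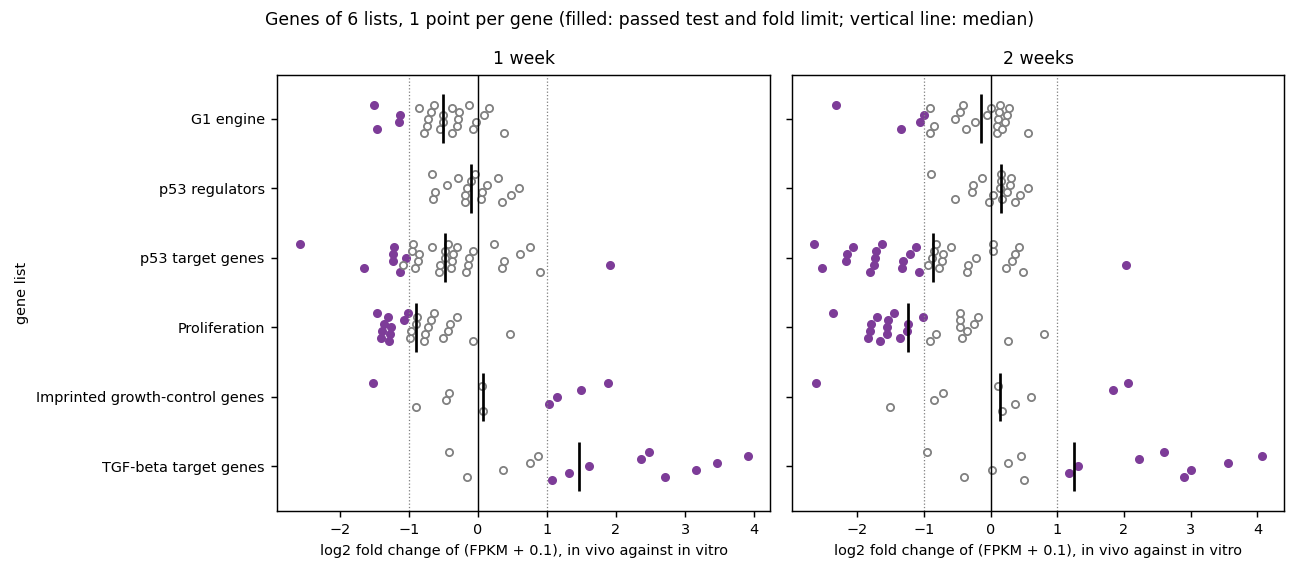
Log2 fold changes of FPKM + 0.1 (x axis) of *in vivo* against *in vitro* samples after 1 week (left) and 2 weeks (right) for the tested genes of 6 lists (y axis), 1 point per gene, filled where both limits were passed, with vertical lines at list medians. The p53 target median lies at -0.48 and -0.86, the proliferation median at -0.90 and -1.24, and the TGF-β target median at 1.46 and 1.25.

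Because the culture medium held an inhibitor of the TGF-β receptor and *Cdkn2b* is a TGF-β responsive gene, 14 TGF-β targets were read beside it. Of these, 9 were higher *in vivo* after 1 week and 8 after 2 weeks, and 0 were lower, with medians of 1.46 and 1.25. *Ltbp2* (3.90 and 4.07), a matrix gene, and *Postn* (3.46 and 3.56), a marker of activated fibroblasts, had the largest log2 fold changes. *Postn* and *Col1a1* are also among the 12 fibroblast markers, so the lists are not independent. Of those 12 markers, 7 were called higher *in vivo* after 1 week and 8 after 2 weeks, and 0 lower, with medians of 1.25 and 1.69. *Cdkn2b* itself was called at neither week, with log2 fold changes of -0.74 (adjusted p = 0.00494 by limma) and -0.32 (adjusted p = 0.0913 by limma). The part of the inhibitor in these values was not tested. It cannot be told apart from effects of the host heart and of the immunosuppressants.

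The genes whose profile over the 8 libraries was most like that of a called member were found by the root mean square gap of centred log2 values among 13104 protein-coding genes. For *Cdkn2a* they were *Cgnl1*, *Folr1* and *Igfbp3*, with gaps of 0.120, 0.121 and 0.134 beside a range of 2.44 in *Cdkn2a* itself. For *Ccnd1* they were *Lyz2*, *Tmem206* and *Psat1* (0.0873, 0.0903 and 0.108, range 1.87), and *Lyz2* is also on the macrophage marker list, with means of 1392 and 1088 FPKM *in vivo* and 3794 and 3316 FPKM *in vitro*. For *Ccnd2* they were *Idi1*, *Cyb5r1* and *Lss* (0.130, 0.133 and 0.144, range 2.13), and for *Cdkn1c* they were *Lgals7*, *Smtnl2* and *Hrc* (0.175, 0.187 and 0.204, range 2.09). These gaps are descriptions over 8 libraries of 4 groups, and most of each profile is the difference between the groups.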

How the data were processed

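RNA-seq was performed by the authors on sorted eGFP+ MICFs with a SMARTer mRNA library kit, and FPKM per gene were deposited for 8 libraries in 4 groups of 2. The submitters' processing notes name CASAVA, HISAT2 2.0.5 and mm10, while the counting tool is not given in the sources used here. Of 54409 gene identifiers shared with GENCODE vM21, 98.3% had the same start and end, as did all 10 members. FPKM times gene length gave whole multiples of a step within 0.01 for 100% of values, from which fragments were recovered. The library size behind the FPKM exceeded the fragments on genes *in vitro* (ratios of 1.09 to 1.15) and fell short of them *in vivo* (0.863 to 0.915), so the authors' values include a scaling between libraries.

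The test took in the 15708 genes that reached 0.5 FPKM in 2 or more libraries, all 10 members among them. Linear models with moderated variances and an intensity trend were fitted to log2(FPKM + 0.1) with limma 3.58.1 in R 4.3.3 over all 8 libraries, two-sided, with Benjamini-Hochberg adjustment. The pseudocount understates changes of low genes. The study's DESeq2 analysis needs counts and was not repeated. The fit was run on simulated data for the comparison after 1 week, with the same spread set for all genes. It called 51.6% of the 95 genes with a log2 change of 1.5, 73.5% of the 98 with 2 and 0.0202% of 14845 unchanged genes. In the real data 2020 of 15708 genes were called after 1 week, so far fewer genes differed in the simulation. These shares depend on the set spread and on how many genes differ, so they do not measure the recovery of the real fit. A gene that was not called may still differ. An exact permutation test of 2 libraries against 2 cannot give a p under 0.333, so none was used. Alternatives were other pseudocounts (0.01 and 1), filters, scalings, variance models, a replicate block, limma voom on recovered fragments, calls by adjusted p alone and leaving out each library. The 2 libraries of each group differed by more than sampling noise (chi-square of 4.50 to 9.93 per gene), and fragment counts cover counting error only. The members and gene lists were chosen with earlier results of these data known. Named from the lists were at most 4 called genes with the largest log2 fold change per list and comparison, plus *Mki67*, *Ccnd3*, *Cdkn2d*, *Cdk4*, *Cdk6*, *Rb1*, *Mdm4* and *Ccng1*.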

Additional observations from a re-analysis of the deposited data

Results flagged for a closer look

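In 2 of the 10 genes the contrast of *in vivo* against *in vitro* samples differed between 1 week and 2 weeks by the interaction test across all genes, in which 9.92% of all genes tested had an adjusted p under 0.05. For *Ccnd2* the difference was 0.82 on the log2 scale (limma adjusted p = 0.00719), from a contrast of -2.01 after 1 week to -1.19 after 2 weeks. The *in vitro* libraries of *Ccnd2* went from 65.3 and 61.6 FPKM to 34.0 and 36.6 FPKM, and the *in vivo* libraries stayed between 14.9 and 16.5 FPKM. Leaving out each library in turn gave 0.74 to 0.89 for *Ccnd2*, with adjusted p-values of 0.0218 to 0.0381. For *Cdkn2c* the difference was 0.39 (limma adjusted p = 0.0458), from -0.61 to -0.21, with the *in vivo* libraries going from 11.0 and 10.4 FPKM to 12.9 and 13.3 FPKM. Leaving out any one library took *Cdkn2c* above the adjusted p limit of 0.05, with adjusted p-values of 0.0767 to 0.142. The explanation of either difference was not tested.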

How the results depend on the processing

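The calls of *Cdkn2a*, *Ccnd1* and *Ccnd2* at both weeks held under every alternative. The number of members called stayed at 3 at each week when any library was left out. Over time it ranged from 0 to 1 *in vitro* and was 0 *in vivo* and for the difference between weeks. By adjusted p alone, with all libraries, it was 9 after 1 week, 8 after 2 weeks, 3 over time in each setting and 2 for the difference. The shares of all genes tested were 42.0% after 1 week, 49.8% after 2 weeks, 25.1% over time *in vitro*, 15.8% *in vivo* and 9.92% for the difference. The count over time *in vitro* was 0 with no filter on low values, with only the libraries compared, where 0 genes were called in all, and with no variance trend, and 2 with quantile normalization. Over all genes, 310 were called higher and 109 lower of 28005 with no filter. Of 15708, 347 were called higher and 160 lower with no variance trend, and 380 and 184 with quantile normalization. The count over time *in vivo* was 1 with the stricter filter and with limma voom. Over all genes, 209 were called higher and 159 lower of 12553 with that filter, and 302 and 203 of 15708 with limma voom. Undoing the scaling gave 4 calls at each week, adding *Cdkn2b* after 1 week (-1.09) and *Mdm2* after 2 weeks (-1.15). Of 15727 genes, 906 were then called higher and 1562 lower after 1 week, and 1029 and 2097 after 2 weeks.

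Signs turned only in values near 0 that were called in no fit. With quantile normalization, 2 weeks against 1 week *in vivo* gave -0.040 for *Cdkn1b* and 0.0090 for *Cdkn2a*, and the difference between weeks gave 0.00034 for *Ccnd1*. Without the scaling, *Cdkn1b* gave -0.033 *in vivo*. Over the fits that each left out 1 library, 2 weeks against 1 week *in vivo* ranged from -0.091 to 0.050 for *Cdkn1a*, -0.089 to 0.10 for *Cdkn1b*, -0.19 to 0.18 for *Cdkn2a* and -0.10 to 0.050 for *Ccnd2*. *In vitro* it ranged from -0.12 to 0.054 for *Cdkn1a* and -0.17 to 0.044 for *Mdm2*. The difference between weeks ranged from -0.074 to 0.10 for *Cdkn1a* and -0.043 to 0.15 for *Cdkn1b*.

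Libraries with the same replicate number did not deviate together (correlations of -0.048 to -0.011 across genes), so the numbers were not read as pairs. With the replicate number as a block 3, 3, 1, 0 and 0 members were called, as without the block. With 2 libraries per group, small differences such as those of *Trp53* are limited by the spread between libraries, and the range for *Cdkn1c* also by its 51 to 168 fragments.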

Other observations

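*Cdkn1c* lies in an imprinted region, and other imprinted growth-control genes were read beside it. Of 14 listed, 10 were tested, with 4 higher and 1 lower in transplanted cells after 1 week, then 2 higher and 1 lower after 2 weeks. The shares of all genes tested were 7.79% higher and 5.07% lower after 1 week, and 9.02% and 8.05% after 2 weeks. *Meg3*, a noncoding RNA gene, was at means of 21.1 and 9.73 FPKM *in vivo* and 9.46 and 2.25 FPKM *in vitro*, with log2 fold changes of 1.15 and 2.07. *Plagl1*, a zinc finger gene, had log2 fold changes of 1.49 and 1.84. *Mest* was lower *in vivo*, at -1.51 and -2.61. *H19*, a noncoding RNA gene, was at means of 70.3 and 26.4 FPKM *in vivo* and 18.9 and 47.5 FPKM *in vitro*, so that it was higher *in vivo* after 1 week (log2 fold change 1.89, limma adjusted p = 2.51e-05) and at -0.85 after 2 weeks. The difference between weeks was -2.74 for *H19* (limma adjusted p = 0.00115) and -1.10 for *Mest*, the 2 genes of this list that passed both limits in that test. Over time, 1 imprinted gene rose and 1 fell *in vitro*, *H19* (1.33) and *Meg3* (-2.03), and 3 fell *in vivo*, *H19* (-1.41), *Meg3* (-1.11) and *Mest* (-1.06), whereas *Cdkn1c* was higher after 2 weeks than after 1 week in both settings. Among all genes tested, 2.76% rose and 1.05% fell *in vitro*, and 1.23% rose and 0.949% fell *in vivo*. For the difference between weeks, 0.573% were called higher and 1.15% lower.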
